A study of Mus musculus with 20 samples.

Results

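Membrane ectopeptidases are enzymes anchored in the plasma membrane that trim or cleave peptides outside the cell. The 6 genes described here are Anpep, Enpep, Lnpep, Dpp4, Mme and Ace, chosen by name: Anpep (CD13) was put forward because of its level in Y-negative tumors, and the other 5 as relatives with the same kind of activity. All 6 of them are among the 28025 genes of the tumor tables, and 2 of them, Anpep and Lnpep, are among the 14701 genes of the cell line tables. Enpep, Dpp4, Mme and Ace were therefore not analysed in culture here.

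Anpep, Enpep and Lnpep are zinc aminopeptidases of the same family, which remove single amino acids from the N-terminus of a peptide. Dpp4 (CD26) is a serine peptidase that removes dipeptides, Mme (neprilysin, CD10) is a zinc endopeptidase, and Ace, the angiotensin-converting enzyme, removes dipeptides from the C-terminus. Together they act on angiotensins, kinins, chemokines and other small peptides, and CD13, CD26 and CD10 are also used as surface markers of leukocytes, fibroblasts and epithelia.

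RNA was sequenced from MB49, a mouse bladder cancer cell line, in 20 libraries that form 4 groups of 5. The material was either cells grown in culture or tumors grown under the skin of wild-type C57BL/6 male mice, each labelled Y NEGATIVE or Y POSITIVE by genotype. In culture BN2, BN3, BN6, BN9 and BN10 carry the Y-negative label and MB8, MB11, MB17, MB19 and MB34 the Y-positive one. Tumors MN11 to MN15 are Y-negative and MP6 to MP10 Y-positive. The labels name no other allele, no further treatment and no age, and do not say which libraries are separate clones, cultures or animals, so p-values measure only the spread between these libraries. Host cells in every tumor carry a Y chromosome. Medium for the cells was DMEM with fetal bovine serum.

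Library totals ran from 14557118 to 21180885 reads. Kdm5d, a Y-linked gene, had 0 reads in the Y-negative cell lines and 1885 in the Y-positive ones, and in the Y-negative tumors the 4 Y-linked genes checked kept 11.8% to 15.9% of their Y-positive level. The keratin genes Krt8 and Krt18 were abundant in every group (at least 343.7 CPM, reads per 1000000 reads of the library). The urothelial markers Upk1a, Krt5 and Krt7 and the epithelial marker Epcam stayed at or below 2.34 CPM in every library, and Upk2 had 0 reads in the Y-negative tumors. Other genes of these cell types were expressed. Gata3 had means of 21.1 (Y-negative) and 24.1 CPM (Y-positive) in culture and 7.49 and 3.38 in tumors. Foxa1 had means from 10.3 to 11.7 CPM in the groups. In the tumors Krt14 reached 142.7 CPM and Krt19 26.5. The Y-negative tumors split into 2 sets: in MN11, MN13 and MN14 long transcripts took a larger part of the reads than in MN12 and MN15. The slope of log2 CPM on log2 transcript length, each gene centred on its mean over the tumors, was 0.19 to 0.25 in MN11, MN13 and MN14, -0.11 and -0.09 in MN12 and MN15, and -0.27 to 0.07 in the Y-positive tumors. The tumor changes of Anpep, Lnpep, Dpp4 and Ace are given with and without MN11, MN13 and MN14. Not every other result is given both ways.

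The sequences before the start sites of 4 members are shown because these members fall into 2 pairs in the tumors, Anpep and Lnpep with the higher mean in the Y-negative group and Dpp4 and Ace with the lower one. Each line holds the 250 bases before a RefSeq start in GRCm38.p6, 5′ to 3′ on the strand of the gene. Capitals mark matches to the GC box (GGGCGG), the CCAAT box (CCAAT), the TATA box (TATAAA) and the E-box (CACGTG) on either strand.

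Anpep (chr7:79848211-79848460, minus strand): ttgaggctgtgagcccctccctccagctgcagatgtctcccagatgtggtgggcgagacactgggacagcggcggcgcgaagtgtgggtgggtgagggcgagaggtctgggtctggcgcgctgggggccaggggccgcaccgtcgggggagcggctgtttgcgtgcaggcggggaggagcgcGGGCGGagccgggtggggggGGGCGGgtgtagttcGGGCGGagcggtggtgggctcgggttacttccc

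Lnpep (chr17:17624490-17624739, minus strand): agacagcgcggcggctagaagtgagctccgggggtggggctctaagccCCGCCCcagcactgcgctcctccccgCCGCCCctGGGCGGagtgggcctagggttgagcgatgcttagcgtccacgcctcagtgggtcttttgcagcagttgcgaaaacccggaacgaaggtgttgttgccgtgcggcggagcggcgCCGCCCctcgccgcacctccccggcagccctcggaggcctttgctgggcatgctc

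Dpp4 (chr2:62412232-62412481, minus strand): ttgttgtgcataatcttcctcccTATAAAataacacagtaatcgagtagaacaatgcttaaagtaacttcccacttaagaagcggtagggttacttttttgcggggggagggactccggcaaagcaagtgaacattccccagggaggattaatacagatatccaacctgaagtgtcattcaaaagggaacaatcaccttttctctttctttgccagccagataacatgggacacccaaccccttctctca

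Ace (chr11:105967698-105967947, plus strand): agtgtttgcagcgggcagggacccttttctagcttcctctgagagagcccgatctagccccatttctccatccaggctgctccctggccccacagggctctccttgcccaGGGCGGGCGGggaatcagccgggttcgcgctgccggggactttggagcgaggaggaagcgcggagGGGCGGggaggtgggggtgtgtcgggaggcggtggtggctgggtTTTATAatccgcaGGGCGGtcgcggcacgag

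All 6 members had RefSeq windows, 9 in total. The Anpep window held 3 GC boxes, that of Lnpep 4, that of Ace 4 (with one overlapping pair) and that of Dpp4 0. The GC content was 72.8% for Anpep, 70.0% for Lnpep and 67.2% for Ace, but 43.6% for Dpp4, against a median of 52.4% over 32851 RefSeq windows. A match to the TATA box letters was found once each in the printed windows of Dpp4 and Ace (12.4% of all windows hold one), and also in that of Enpep. In Dpp4 the match lies near the end of the window farthest from the start. In Ace it is close to the start but on the opposite strand. Whether any of these matches acts as a TATA box was not tested. A second RefSeq window of Ace, whose start is in no GENCODE transcript, held 0 TATA boxes, 0 GC boxes and 1 CCAAT box. A GC box is held by 32.7% of all windows and was in those of Anpep, Lnpep and Ace. A CCAAT box (33.8% of all windows) or an E-box (6.02%) was in none of the 4 printed windows. The files count reads per gene, and the coding transcripts of Anpep in GENCODE M21 start at positions from 79861059 down to 79842352 on chromosome 7, so reads from different start sites were not separated.

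Anpep encodes aminopeptidase N, which removes neutral residues such as alanine and is carried by myeloid cells, fibroblasts and some epithelia (ENSMUSG00000039062, mm10 chromosome 7, 79821803 to 79861059, minus strand). In the Y-negative tumors it stood at 349.6 CPM in MN11, 177.7 in MN12, 403.7 in MN13, 388.6 in MN14 and 206.6 in MN15. In the Y-positive tumors it stood at 44.1 CPM in MP6, 51.0 in MP7, 32.7 in MP8, 24.4 in MP9 and 38.3 in MP10. Every Y-negative tumor lay above every Y-positive tumor, and the lowest of the former, MN12, was more than 3 times the highest of the latter, MP7. The means were 305.3 ± 105.6 CPM (SD, n = 5) and 38.1 ± 10.2, a ratio of 8.01, and edgeR's fit gave a log2 fold change of 2.98 ± 0.25 (Y-negative minus Y-positive, ± SE). This contrast chose Anpep, so the values are a description with no test. For scale, 5.45% of the 14783 genes tested in the tumors had no overlap between the groups.

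**Figure D1:**
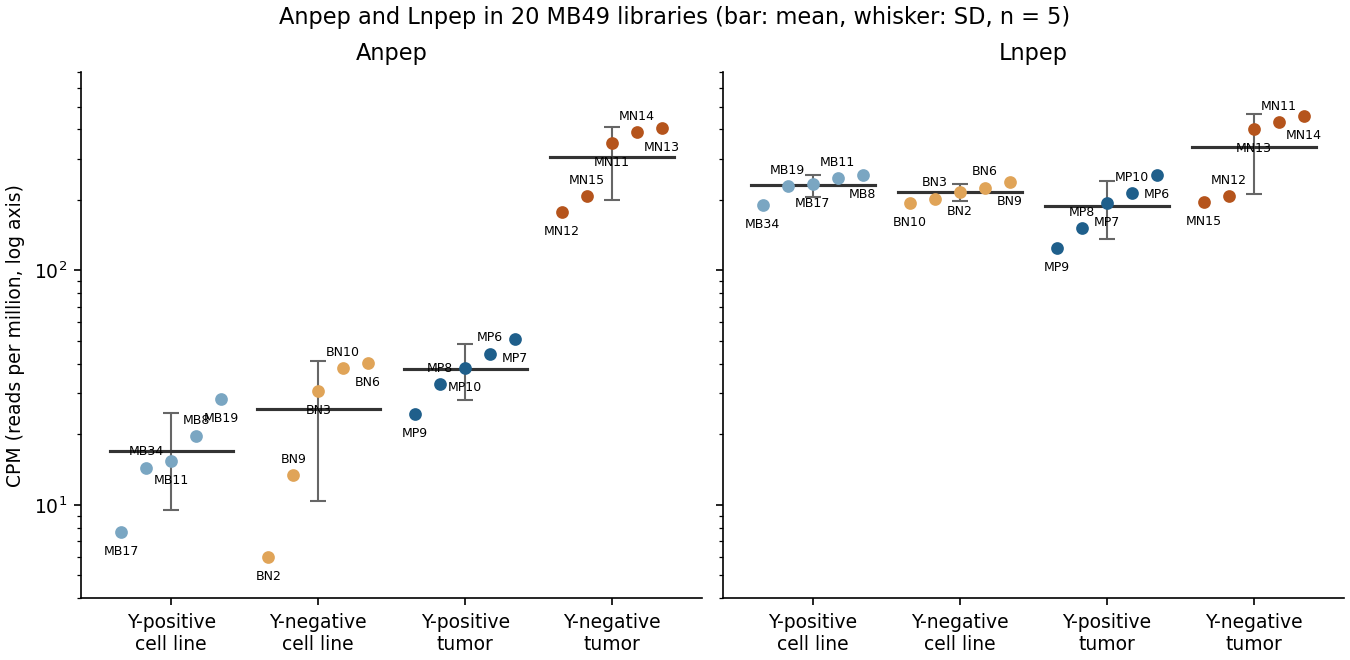
CPM of Anpep (left) and Lnpep (right) on a shared log axis in each of 20 libraries, by group, with the mean (bar) and SD (whisker) of 5 libraries. Anpep in the 5 Y-negative tumors lies between 177.7 and 403.7 CPM, above every other library, while Lnpep lies between 124.4 and 456.0 CPM in all groups.

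By rank Anpep was among the abundant transcripts of the Y-negative tumors. Ordered by FPKM, the deposited level per length and library size, it stood between place 390 and place 1066 of 17309 protein-coding genes in the Y-negative tumors and between place 3926 and place 5984 in the Y-positive tumors. In tumors, which are bulk samples, a change in the number of cells that express a gene and a change in RNA per cell cannot be told apart.

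The set of libraries mattered for the size of the difference. MN11, MN13 and MN14 held 349.6 to 403.7 CPM and MN12 and MN15 177.7 and 206.6, means that were 9.99 and 5.04 times the Y-positive mean. Fitted without MN11, MN13 and MN14, the log2 fold change of Anpep was 2.40 ± 0.22. When each library's length slope entered the fit it was 2.48 ± 0.14. Leaving out any single tumor library gave 2.86 to 3.10. Whether the long-transcript pattern has a part in the rest of the difference was not tested.

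Marker lists of other cell types were summed per library beside Anpep. The neutrophil list (6 of 6 genes listed) came to 49.95 to 230.5 CPM in the Y-negative tumors and 39.9 to 90.2 in the Y-positive tumors, and MN13, with the highest Anpep, had the lowest neutrophil sum of its group. The macrophage and monocyte list (8 of 8) came to 1183 to 2208 CPM against 1315 to 2325, and the fibroblast list (8 of 8) to 697.9 to 1693 against 1124 to 2054. The pericyte list (7 of 7) ranged from 69.4 to 108.8 CPM against 74.9 to 109.7, and the endothelial list (8 of 8) from 78.3 to 128.6 against 84.8 to 121.5. The groups overlapped in each of these 5 sums, and none of their genes was at 0 reads over a tumor group. The urothelial and epithelial list (14 of 15 genes listed, Upk2 at 0 reads in the Y-negative tumors) did not overlap: it came to 3556 to 4152 CPM in the Y-negative tumors and to 4478 to 5578 in the Y-positive tumors. Krt8 (means 2530 and 3173 CPM) and Krt18 (1260 and 1651) were its largest members, and each overlapped between the groups. Within it Krt14, a basal keratin gene, ran from 18.8 to 27.8 CPM against 74.8 to 142.7. Krt19 (1.29 to 9.36 against 10.7 to 26.5) and Cdh1 (0.860 to 3.43 against 4.45 to 9.30) were also lower without overlap. Gata3 went the other way without overlap, at 5.26 to 9.53 CPM against 2.28 to 4.15. The part of these cell types in the level of Anpep was not tested.

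None of the genes that flank Anpep on chromosome 7 was called in the tumors. On the side of higher coordinates the adaptor complex gene Ap3s2 stood at -0.29 ± 0.14 (log2, adjusted p = 0.232, edgeR's quasi-likelihood test), Arpin, an inhibitor of the Arp2/3 complex, at 0.01 ± 0.11 (adjusted p = 0.969) and Zfp710 at 0.30 ± 0.16 (adjusted p = 0.294). On the other side the peroxisomal gene Pex11a stood at -0.12 ± 0.19 (adjusted p = 0.737), the lipid droplet gene Plin1 at -1.88 ± 0.72 (adjusted p = 0.152) and the kinesin gene Kif7 at 0.60 ± 0.25 (adjusted p = 0.178). These are the 3 nearest tested protein-coding genes on each side, and 0 of the 6 passed the threshold of 0.05, against 2.45% of all genes tested in the tumors.

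In cultured cells, whose values were not used to choose Anpep, the genotypes overlapped. The Y-negative cell lines held 5.99 CPM in BN2, 30.7 in BN3, 40.3 in BN6, 13.4 in BN9 and 38.2 in BN10. The Y-positive cell lines held 19.6 CPM in MB8, 15.4 in MB11, 7.65 in MB17, 28.2 in MB19 and 14.4 in MB34. The Y-negative group contained both the lowest and the 3 highest of the 10 libraries. The means were 25.7 ± 15.3 CPM (SD, n = 5) and 17.04 ± 7.55. Between them edgeR's quasi-likelihood test gave 0.54 ± 0.44 (log2, adjusted p = 0.545), so the difference was not larger than the spread between libraries. Of 12446 genes tested in culture, 0.0321% were called and 3.82% had no overlap between the groups. The sign was the same in 18 of 18 alternatives, from 0.32 to 0.81, and none of them called Anpep. Of the 6 flanking genes tested in culture 0 were called, and 1 of them, the replication gene Ticrr, had no overlap between the groups (0.63 ± 0.19, adjusted p = 0.160). Whether the change in tumors exceeds that in culture was not tested, because the tumor values chose the gene.

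The spread of Anpep within a group was wide in culture. Its highest library was 6.73 times its lowest in the Y-negative cell lines and 3.68 times in the Y-positive ones, compared with 2.27 and 2.09 times in the Y-negative and Y-positive tumors.

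Tumors held more Anpep than cultures of the same genotype label. The log2 fold change, tumor minus cell line, was 3.40 ± 0.40 for the Y-negative libraries, a ratio of means of 11.9 with no overlap, and 1.01 ± 0.37 for the Y-positive libraries, a ratio of 2.24. In the latter the highest culture, MB19 at 28.2 CPM, lay above the lowest tumor, MP9 at 24.4 CPM. Both are descriptions with no test, since they contain the tumor values of Anpep. Background rates are high in these comparisons: 34.7% of 13740 genes had no overlap between Y-negative tumors and cultures and 46.4% between Y-positive tumors and cultures.

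Lnpep encodes the insulin-regulated aminopeptidase, which travels in vesicles with the glucose transporter GLUT4 and cleaves oxytocin and vasopressin (ENSMUSG00000023845, mm10 chromosome 17, 17521410 to 17625050, minus strand). In culture it was the steadier of the pair. The Y-negative cell lines held 215.8 CPM in BN2, 202.2 in BN3, 225.4 in BN6, 239.1 in BN9 and 194.3 in BN10, and the Y-positive ones 254.2 in MB8, 246.6 in MB11, 232.8 in MB17, 228.8 in MB19 and 190.5 in MB34. The groups overlapped, with the 2 highest libraries and the lowest all Y-positive. By the same test its difference was -0.15 ± 0.12 (log2, adjusted p = 0.537), so neither of the 2 members measured in culture was called between the genotypes.

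In the Y-negative tumors Lnpep stood at 429.2 CPM in MN11, 207.5 in MN12, 399.5 in MN13, 456.0 in MN14 and 195.8 in MN15, and in the Y-positive tumors at 255.7 in MP6, 194.3 in MP7, 151.4 in MP8, 124.4 in MP9 and 213.4 in MP10. MN11, MN13 and MN14 lay above every other tumor, while MN12 and MN15 lay within the range of the Y-positive tumors. The group means were 337.6 ± 125.8 CPM and 187.8 ± 51.6, a log2 fold change of 0.82 ± 0.24, given with no test because it comes from the contrast that chose the set. Without MN11, MN13 and MN14 it was 0.17 ± 0.23, and 0.25 ± 0.08 when the length slope entered the fit.

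Lnpep, whose annotated length of 14144 bases is the longest of the 6 members, moved with the length slope across both tumor groups. The 3 libraries with the steepest slope, MN14, MN11 and MN13, had the 3 highest Lnpep levels in the same order, and the 2 with the lowest slope, MP9 and MP8, had the 2 lowest. The same 3 libraries held the 3 highest levels of Anpep (4135 bases), in another order, and MP9 and MP8 its 2 lowest. Where the slopes of the groups overlap, MN12 and MN15, at -0.11 and -0.09, stood at 177.7 and 206.6 CPM of Anpep, and MP7, at -0.07, stood at 51.0 CPM. The slopes of MN11, MN13 and MN14 are above the highest Y-positive slope, 0.07 in MP6, so for these libraries slope and genotype cannot be told apart. These are 10 libraries that share the reads from which both measures come.

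**Figure D2:**
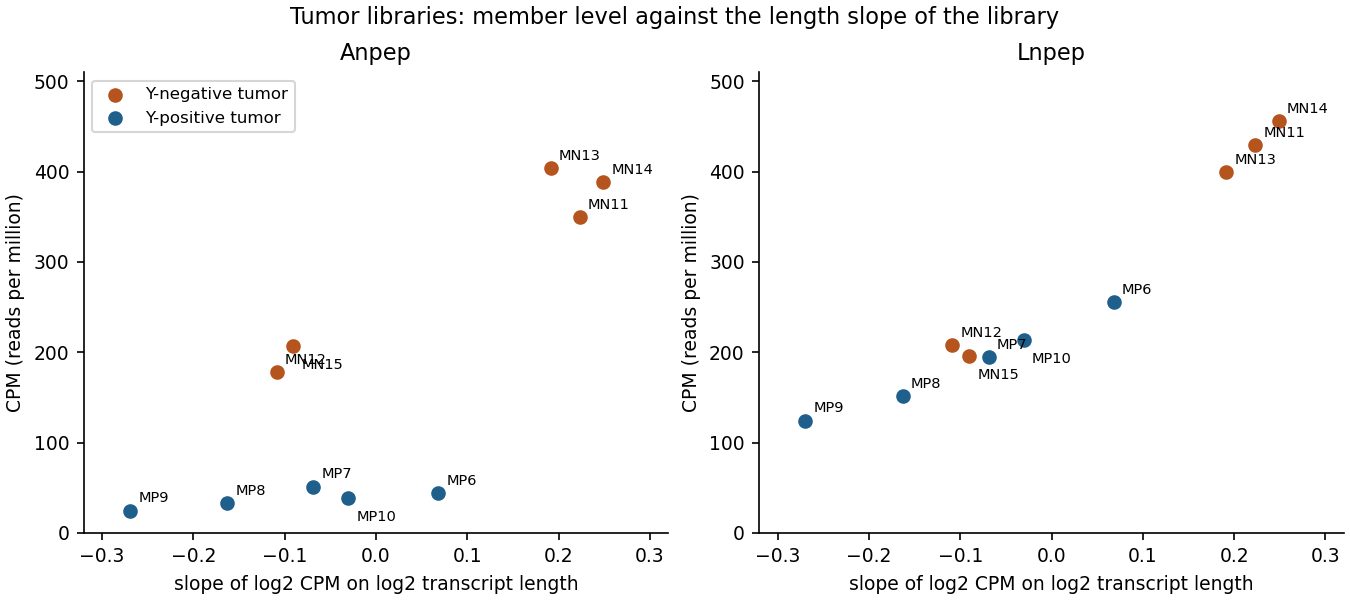
CPM of Anpep (left) and Lnpep (right) in the 10 tumor libraries against the slope of log2 CPM on log2 transcript length in the same library, one point per library. Lnpep is higher in libraries of higher slope in both groups, from 124.4 CPM in MP9 to 456.0 CPM in MN14, and the 3 highest and 2 lowest tumors of Anpep are the same libraries. MN12 and MN15, whose slopes lie within the range of the Y-positive tumors, hold 177.7 and 206.6 CPM of Anpep, and no Y-positive tumor has a slope like those of MN11, MN13 and MN14.

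The ratio of Anpep to Lnpep reads was tighter within a tumor group than either level. It ran from 0.815 to 1.06 in the Y-negative tumors and from 0.172 to 0.262 in the Y-positive tumors. In culture it ran from 0.0278 to 0.197 in the Y-negative and from 0.0329 to 0.123 in the Y-positive libraries. The tumor groups did not overlap in this ratio. It contains the tumor values that chose Anpep, so this is a description with no test. Among the Y-negative tumors MN12 (0.857) and MN15 (1.06) lay within or above the range of MN11, MN13 and MN14 (0.815 to 1.01). The part of the length pattern in this ratio was not tested.

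Between tumors and cultures Lnpep went in opposite directions in the genotypes. In the Y-negative libraries it was higher in tumors by 0.46 ± 0.19 (log2, adjusted p = 0.0464, edgeR's quasi-likelihood test, higher in 18 of 25 pairs of libraries), against 56.0% of genes called. In the Y-positive libraries it was lower in tumors, at -0.47 ± 0.19 (adjusted p = 0.0409, lower in 18 of 25 pairs), against 61.8% of genes called. Both calls were near the threshold. That in the Y-negative libraries reversed to -0.19 ± 0.20 (adjusted p = 0.469) without MN11, MN13 and MN14 and was lost when any of MN11, MN13, MN14, MP7, MP10, BN2, BN3, BN6, BN10 or any Y-positive cell line was left out (adjusted p up to 0.191), with DESeq2's size factors (0.0509) and by limma-voom (0.0847). That in the Y-positive libraries was lost without MP7, MP8, MP9, MB8, MB11, MB17 or MB19 (adjusted p up to 0.116), and with scaling to total reads alone, where it was -0.28 ± 0.22 (adjusted p = 0.279). That scaling moves the median of all genes by 0.18 in both comparisons, and the share of calls that are higher in Y-negative tumors from 50.2% to 61.7%. Whether the change of Lnpep differs between the genotypes was not tested.

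Dpp4 cleaves dipeptides from chemokines such as CXCL12 and from incretin hormones, and is carried by T cells and by a subset of fibroblasts (ENSMUSG00000035000, mm10 chromosome 2, 62330073 to 62412231, minus strand). It stood at 2.56 CPM in MN11, 2.46 in MN12, 3.02 in MN13, 1.70 in MN14 and 1.40 in MN15, or 26 to 64 reads per library. The Y-positive tumors held 4.73 CPM in MP6, 1.48 in MP7, 7.16 in MP8, 3.31 in MP9 and 5.18 in MP10, or 25 to 133 reads. The groups overlapped, although all Y-positive tumors except MP7 lay above all Y-negative tumors. MP7 was set apart after its values were seen, and the share of all genes that separate in this way was not counted. The log2 fold change was -0.98 ± 0.37, with -1.21 to -0.73 when single libraries were left out. Without MN11, MN13 and MN14 it was -1.11 ± 0.55.

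Ace converts angiotensin I to angiotensin II, inactivates bradykinin and is best known from endothelium (ENSMUSG00000020681, mm10 chromosome 11, 105967945 to 105989964, plus strand). The Y-negative tumors held 4.11 CPM in MN11, 3.25 in MN12, 5.62 in MN13, 4.71 in MN14 and 4.52 in MN15. The Y-positive tumors held 7.38 CPM in MP6, 4.15 in MP7, 7.80 in MP8, 11.01 in MP9 and 6.97 in MP10. The groups overlapped here too. As for Dpp4, and with the same limit, the 4 Y-positive tumors other than MP7 lay above all 5 Y-negative tumors. The log2 fold change was -0.77 ± 0.26, with -0.93 to -0.57 when single libraries were left out, and -0.63 when the length slope entered the fit. Without MN11, MN13 and MN14 it was -0.89 ± 0.38. The changes of Dpp4 and Ace, like those of Anpep and Lnpep in the tumors, carry no test.

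The markers of cells that can carry Dpp4 and Ace overlapped between the groups. The T cell list (7 of 7 genes) summed to 28.9 to 51.3 CPM in the Y-negative and 30.1 to 72.3 in the Y-positive tumors, and the endothelial and fibroblast sums are given above. The mast cell list (6 of 6 genes), of a cell type not named above as a carrier, summed to 11.1 to 31.4 CPM in the Y-negative tumors. In MP6, MP8, MP9 and MP10 it summed to 71.2 to 85.8. MP7, at 25.3 CPM, lay among the Y-negative tumors in this sum, as it did in Dpp4 and Ace. MP7 also had the lowest fibroblast, macrophage and monocyte (1315 CPM), adipocyte (14.5) and B cell (9.32) sums of the Y-positive tumors. In the remaining lists another Y-positive tumor was lowest, as in the dendritic cell list (85.7 CPM in MP7, 71.8 in MP9). In the T cell sum MP7, at 51.6 CPM, lay above every Y-negative tumor. The part of these cells in the levels of Dpp4 and Ace was not tested.

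Enpep encodes aminopeptidase A, which converts angiotensin II to angiotensin III and marks pericytes (ENSMUSG00000028024, mm10 chromosome 3, 129269175 to 129332720, minus strand). It was near the limit of detection, with 2 reads in MN11, 5 in MN12, 22 in MN13, 2 in MN14 and 1 in MN15, and with 33 reads in MP6, 3 in MP7, 12 in MP8, 28 in MP9 and 8 in MP10. The groups overlapped, with MN13 above MP7, MP8 and MP10. The means were 0.32 ± 0.41 CPM (SD, n = 5) and 0.93 ± 0.74.

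Mme encodes neprilysin, which degrades enkephalins, substance P and natriuretic peptides and is found on neutrophils, early lymphoid cells and stroma (ENSMUSG00000027820, mm10 chromosome 3, 63241537 to 63386030, plus strand). It had 7 reads in MN11, 3 in MN12, 25 in MN13, 23 in MN14 and 0 in MN15, and 14 in MP6, 2 in MP7, 7 in MP8, 22 in MP9 and 0 in MP10. The groups overlapped throughout, at 0.62 ± 0.59 and 0.50 ± 0.51 CPM. Enpep and Mme did not reach the count minimum of the fit, so 4 of the 6 members have a fold change in tumors. At 0 to 33 reads per library a difference between the groups was not tested for either gene.

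**Figure D3:**
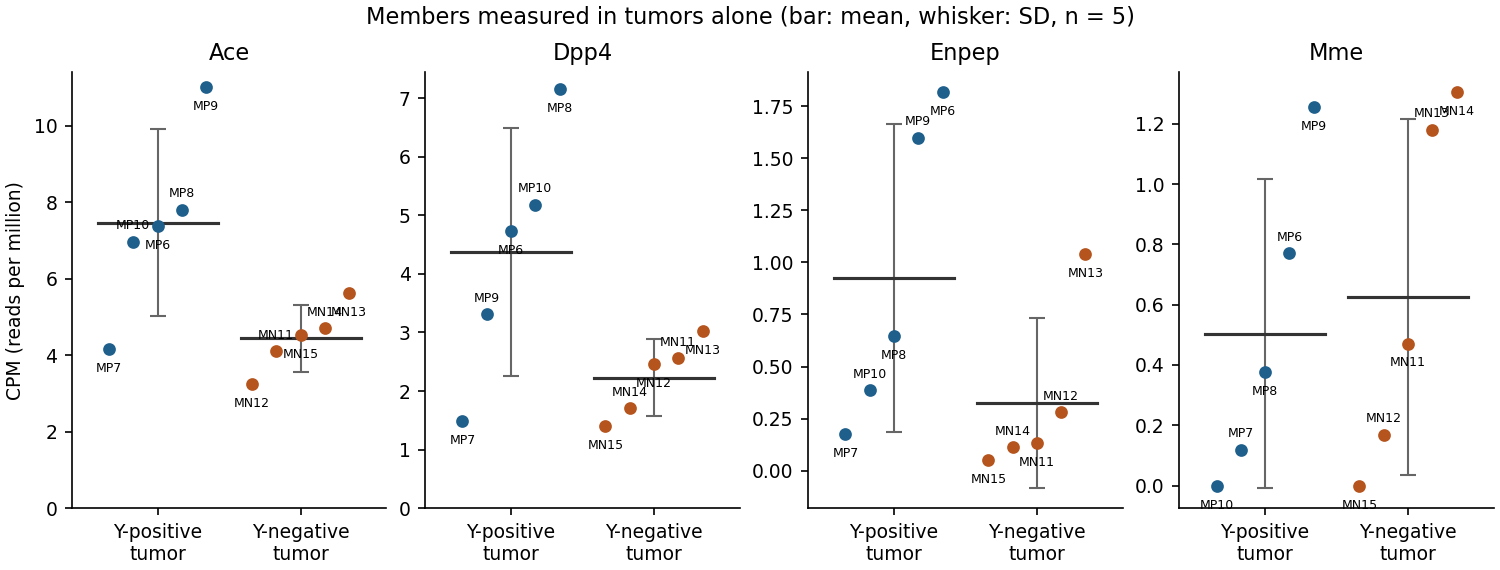
CPM of Ace, Dpp4, Enpep and Mme in the 10 tumor libraries, with the mean (bar) and SD (whisker) of 5 libraries per group and a separate linear axis for each gene. In Ace and Dpp4 the groups overlap through MP7, while the other Y-positive tumors lie above the Y-negative ones. Enpep and Mme stay below 1.82 CPM in all libraries.

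Levels of different members were compared per length, in FPKM. In the Y-negative tumors the order was Anpep (189.7 ± 65.6, SD, n = 5), Lnpep (86.3 ± 32.2), Dpp4 (1.64 ± 0.49), Ace (1.52 ± 0.30), Mme (0.233 ± 0.220) and Enpep (0.152 ± 0.192). Anpep was above Lnpep in 5 of 5 libraries, although the ranges of the group overlapped. In the Y-positive tumors Lnpep came first (48.0 ± 13.2 FPKM), above Anpep (23.7 ± 6.35) in 5 of 5 libraries, followed by Dpp4 (3.21 ± 1.56), Ace (2.56 ± 0.84), Enpep (0.435 ± 0.347) and Mme (0.188 ± 0.192). Both groups of cultures had Lnpep (55.0 ± 4.61 and 58.9 ± 6.30 FPKM, Y-negative and Y-positive) above Anpep (15.9 ± 9.47 and 10.6 ± 4.68) without overlap. Neighbours whose libraries overlapped were Dpp4 and Ace, and Mme and Enpep, in both tumor groups. The deposited FPKM rest on lengths shorter than the length column (1361 bases for Dpp4, where the column gives 6319), and by that column Ace stood above Dpp4 in both tumor groups, at 0.840 against 0.353 and 1.41 against 0.692 reads per 1000 bases and 1000000 reads. Enpep (0.0689) stood above Mme (0.0541) by the column in the Y-negative tumors, the reverse of their FPKM order. The order of Anpep and Lnpep was the same on both scales, but by the column their ranges overlapped in the Y-positive tumors (9.21 and 13.3) and no longer overlapped in the Y-negative ones (73.8 and 23.9).

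Of the reads of the 6 members in the Y-negative tumors Anpep took 47.1% ± 2.76 (SD, n = 5) and Lnpep 51.6% ± 2.93. In the Y-positive tumors Anpep took 16.0% ± 2.57 and Lnpep 78.0% ± 2.91. Dpp4, Enpep, Mme and Ace together made up the small remainder in both groups, of which Ace was the largest part on average (0.740% and 3.43%).

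Relatives of the 6 enzymes, and the peptides and receptors they act on, were taken as 5 lists of 53 genes. In the tumors 44 were listed and 28 passed the count minimum. By edgeR 0 of the 28 were called between the genotypes (8 at an unadjusted p under 0.05, against 22.7% of all genes), and DESeq2 called 3 and limma-voom 1. Of all 14783 genes tested 2.45% were called by edgeR, 1331 genes by DESeq2 and 302 by limma-voom. Their median log2 fold change was -0.08, and that of all genes tested was -0.01.

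Among the other zinc aminopeptidases of the Anpep family 0 of 6 tested genes were called in tumors. The cytosolic puromycin-sensitive aminopeptidase gene Npepps stood at 0.32 ± 0.15 (adjusted p = 0.208, edgeR) and Rnpepl1 at 0.24 ± 0.17 (adjusted p = 0.414). Of the neprilysin family 0 of 3 were called, with the endothelin-converting enzyme genes Ece2 at 0.73 ± 0.45 and Ece1 at -0.07 ± 0.25. Of the relatives of Ace and Dpp4 0 of 6 were called, with Fap, the fibroblast activation protein, at -0.85 ± 0.32 (adjusted p = 0.150) and Dpp6 at -2.32 ± 0.89 (adjusted p = 0.151, 0.223 against 1.18 CPM). Of the other surface peptidases 0 of 5 were called, with the dipeptidase gene Dpep1 at -1.19 ± 0.49 and the carboxypeptidase gene Cpd at 0.40 ± 0.26.

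Among substrates and receptors 0 of 8 were called in tumors, against 2.45% of all genes tested. Of the 8, 7 had a negative change (median -0.67), while 7211 of all 14783 genes tested had a positive one. Whether the 8 genes change together was not tested. The bradykinin receptor gene Bdkrb2 stood at 2.12 ± 0.81 CPM in the Y-negative and 4.56 ± 0.997 in the Y-positive tumors (-1.13 ± 0.30, adjusted p = 0.0640, edgeR). Cxcl12, a chemokine that Dpp4 cleaves, stood at 4.02 ± 1.30 CPM against 10.4 ± 6.75 (-1.41 ± 0.39, adjusted p = 0.0725). Both, and the angiotensinogen gene Agt (-0.89 ± 0.30 by edgeR), were called by DESeq2, which called 1331 of all 14783 genes tested. By edgeR Cxcl12 was called without MP7 (300 of all 15121 genes were) and with no filter on low counts (503 of all 28025). Among the relatives above Dpp6 was called by edgeR without MN13 (171 of all 14988 genes were) and by limma-voom.

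**Figure D4:**
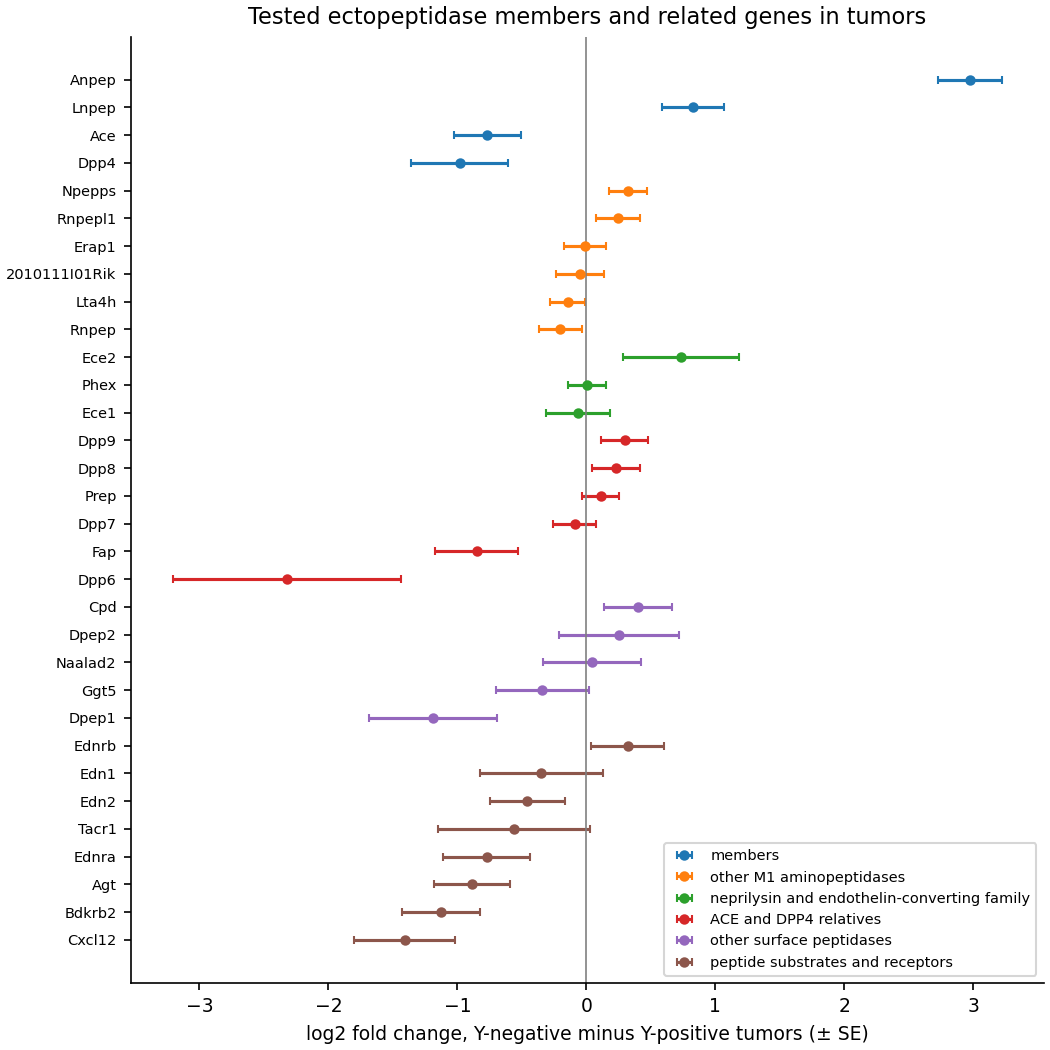
Log2 fold change (Y-negative minus Y-positive tumors, edgeR) with its standard error for the 4 members above the count minimum and for 28 related genes, coloured by list. Anpep, at 2.98, stands alone on the right, Lnpep is at 0.82, and the other aminopeptidases of its family lie between -0.20 and 0.32.

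In culture 19 of the 53 related genes were listed and 17 tested, and 0 were called by edgeR, DESeq2 or limma-voom (2 at an unadjusted p under 0.05 by edgeR, against 16.9% of all genes). Those 2 were the leukotriene A4 hydrolase gene Lta4h (0.39 ± 0.15, adjusted p = 0.224, with every Y-negative culture above every Y-positive one) and Bdkrb2 (-0.66 ± 0.30, adjusted p = 0.287). The next smallest in their lists were Prep, a prolyl endopeptidase gene (0.26 ± 0.13), Dpp9 (0.18 ± 0.13), the aminopeptidase O gene 2010111I01Rik (0.16 ± 0.15), Ece1 (0.26 ± 0.44), Phex (0.21 ± 0.45), Cpd (-0.15 ± 0.22), Cpm (-0.12 ± 0.45) and the endothelin gene Edn1 (-0.26 ± 0.76).

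Between tumors and cultures, where most genes differ, 11 of 18 related genes were called in the Y-negative and 13 of 18 in the Y-positive libraries (61.1% and 72.2%, against 56.0% and 61.8% of all genes). In the Y-negative libraries 7 were higher and 4 lower in tumors, against 28.1% and 27.9% of all genes, and in the Y-positive libraries 8 were higher and 5 lower, against 31.7% and 30.1%. Scaled to total reads, 10 were higher and 3 lower in the Y-negative and 9 higher and 2 lower in the Y-positive libraries: Prep was then called in neither, Cpd and Cpm were lost in the Y-positive libraries, where Ece2 was gained, and Npepps, Dpp7 and Lta4h were gained in the Y-negative ones. The aminopeptidases of the Anpep family that were called rose in tumors. Erap1, which trims peptides for MHC class I in the endoplasmic reticulum, rose by 1.76 ± 0.21 and 1.94 ± 0.21 (log2, Y-negative and Y-positive), 2010111I01Rik by 0.86 ± 0.18 and 1.12 ± 0.18, Rnpep by 0.73 ± 0.24 and 1.19 ± 0.24 and Rnpepl1 by 0.68 ± 0.17 and 0.66 ± 0.18. Lta4h rose in the Y-positive libraries (0.87 ± 0.14) and stood at 0.29 ± 0.14 in the Y-negative ones, and Npepps was called in neither (0.20 ± 0.14 and -0.15 ± 0.14). In the Y-negative libraries the call of Rnpep was lost without BN6, that of Lta4h was made without BN10 or MN15, and those of Rnpep and Rnpepl1 were lost without MN11, MN13 and MN14 together.

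Ece1, of the neprilysin family, rose by 2.41 ± 0.36 and 2.78 ± 0.37 in tumors of the respective genotypes, while Phex fell (-1.42 ± 0.37 and -1.16 ± 0.37). Ece2 rose in the Y-negative libraries (2.12 ± 0.55) and stood at 1.15 ± 0.55 in the others. Dpp9 rose (0.66 ± 0.16 and 0.59 ± 0.16) and Prep fell (-0.54 ± 0.14 and -0.35 ± 0.14), Dpp7 rose in the Y-positive libraries (0.53 ± 0.22), at 0.41 ± 0.22 in the others, and Dpp8 was called in neither. The carboxypeptidase gene Cpm fell (-2.13 ± 0.68 and -1.65 ± 0.66) at levels of at most 1.34 CPM on average, and Cpd fell in the Y-positive libraries (-0.61 ± 0.25). Bdkrb2 fell from 22.8 ± 9.80 CPM in Y-negative cultures to 2.12 ± 0.81 in Y-negative tumors (-3.59 ± 0.32, adjusted p = 6.57e-09, edgeR) and from 35.1 ± 11.8 to 4.56 ± 0.997 in the Y-positive ones (-3.08 ± 0.31). Its relative Bdkrb1 (-1.41 ± 0.69 and -1.15 ± 0.69) and Edn1 were called in neither. In the Y-negative libraries Bdkrb1 was called without MN14, and the calls of Cpm, Dpp9 and Phex were lost without MN11, MN13 and MN14 together. In the Y-positive libraries the smaller changes depended on single libraries. Dpp7 was lost without MB11, MB19, MB34, MP8, MP9, MN11, MN13 or MN14, Prep without MB8, MB11, MB34, MP8, MP9 or MP10, Cpd without MB11, MB17, MB19, MP8, MP9 or MP10 and Cpm without MB17, MB34, MP6, MP8 or MP9, while Ece2 was called without MP6.

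The genes nearest to Anpep in profile were sought by the root mean square difference of log2 CPM after centring, among protein-coding genes whose mean reached 5 CPM. Over the 10 tumor libraries the nearest of 10514 genes were the bicarbonate transporter gene Slc4a4 (difference 0.73), the transcription factor gene Zbtb20 (0.78), the clock gene Per3 (0.79), Strc (0.80) and the chemokine-binding receptor gene Ackr1 (0.80). A gene without any change across the libraries would lie at 1.51, so the distance of the nearest profile was still large beside the variation of Anpep itself. Over all 20 libraries the nearest of 9996 genes were Trps1 (0.83), Chrd (0.89), Hr (0.89), Ssc5d (0.91) and Fgf11 (0.93), where a flat gene would lie at 1.70. Lnpep had much closer companions over the 20 libraries, Arhgef12 (0.125) and Bod1l (0.135) against 0.393 for a flat gene. Both are long, at 13620 and 11995 bases. Of the nearest to Anpep (4135 bases) in the tumors, Zbtb20 (30730), Slc4a4 (10815), Per3 (9608) and Strc (6229) are longer than Anpep and Ackr1 (1405) is shorter. Of those over all 20 libraries Trps1 (13380), Hr (6919), Chrd (6258) and Ssc5d (4590) are longer and Fgf11 (3044) is shorter. Likeness in profile is a description of these libraries.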

How the data were processed

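Per the labels' protocols, RNA came from an RNeasy kit and libraries from a SMARTer mRNA-Seq kit. In the submitters' processing notes stand, with no role given, mm10, STAR 2.7.0d, cutadapt 2.3, RSEM 1.3.1, MultiQC 1.8 and FastQC 0.11.5. The annotation release and the strand setting were not given in the sources used here, and overlapping genes were not separated. The deposited values are whole read counts per gene and, per the file headers, FPKM. A further column of each table, headed by a library name, was not used. In the table of MN14 that column carries the name of MN13, while its count and FPKM columns are named for MN14. Gene names came by ID for MN12, whose table has none, and for 25 altered names. The number of columns that belong to no sample was 0.

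CPM is the count per 1000000 reads of a library. The counts entered edgeR 4.0.16 under R 4.3.3, with TMM scaling. Genes passed filterByExpr at a count of 10 and a total of 15. Its quasi-likelihood test was used, and p-values were adjusted over all tested genes by Benjamini and Hochberg, with 0.05 as the threshold. Cell lines and tumors were fitted apart. Tumor against cell line came from 4 group means over 20 libraries and the 14650 genes in both kinds of table. The fit was tested on simulated cell line (12354 genes), tumor (14619) and tumor-against-culture (13493) data. It recovered 96.0%, 88.0% and 90.0% of genes changed by 1 on the log2 scale, and 3.45%, 6.47% and 7.77% of its calls were false. Changes were simulated in well-counted genes only, with the same spread for every gene and no set of libraries like MN11, MN13 and MN14. These rates therefore do not hold for genes of few reads or wider spread. Alternatives were DESeq2 1.42.0, limma-voom (limma 3.58.1), other scalings and filters, libraries left out and the length slope as a term.

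Members, lists and tests were chosen with earlier results of these data known. Named genes are all members, from each list those called and up to 2 more of smallest adjusted p, the 3 nearest tested genes on each side of Anpep, and the nearest profiles (Dpp8, Bdkrb1, Agt and genes named for a single library were added after their values were seen). Sequences are from RefSeq (GRCm38.p6).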

Additional observations from a re-analysis of the deposited data

Results flagged for a closer look

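One value of the 6 genes stood far from its group. Enpep in MN13, a Y-negative tumor, stood at 1.04 CPM (22 reads), while the other 4 Y-negative tumors held 1 to 5 reads. It was flagged because its gap to the next library took most of the range of the group. Of 16 groups of 5 libraries checked this was the 1 flagged, and chance flags about 1 in 20.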

How the results depend on the processing

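In culture 4 genes were called (Kdm5d, Uty, Nes and Hes6), but 472 by DESeq2, 13 by limma-voom, 78 with the length slope as a covariate, 457 from the model of 4 group means and 2 to 66 without single libraries (BN3 7, BN9 66, BN10 9, MB11 2, MB19 10). In tumors 362 were called, but 234 with scaling to total reads, 1331 by DESeq2, 21 without MN11, MN13 and MN14, 3630 without MN12 and MN15, and 80 to 796 without single libraries (MN11 80, MN12 796, MN13 171, MN14 84, MP8 80, MP9 151, MP10 169). The cause was not tested. The change of Anpep in tumors was 2.40 without MN11, MN13 and MN14 and 2.48 with the length slope, and otherwise 2.86 to 3.25. Lnpep moved from 0.82 to 0.17 and 0.25 under the same settings, and its tumor-against-culture change in Y-negative libraries reversed to -0.19 without MN11, MN13 and MN14. Without MN12 and MN15, 3 of 29 related genes were called in tumors (Bdkrb2, Cpd and Npepps), against 3630 of all 15396 genes tested. With the length slope Ednra was called, against 357 of all 14783 genes. Bdkrb2 was called in the model of 4 group means, against 307 of all 13740 genes. Levels per length were lower by the length column for all members. Depth limits Enpep and Mme. No paired analysis was possible because no groups compared share more than 1 library number.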
